A study of Homo sapiens with 16 samples.

Results

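The MM.1S cells treated with GSK126 were compared directly with the MM.1S cells treated with UNC0638, which took 4 of the 16 arrays of the series, 2 for each inhibitor. The members were chosen by the sample titles alone. MM.1S is an established human cell line of multiple myeloma, a cancer of antibody-secreting plasma cells. One group had received GSK126 at 1 µM and the other UNC0638 at 1 µM, each for 6 days, and both groups shared the line, the medium and the time in culture. GSK126 inhibits EZH2, and UNC0638 inhibits G9a (encoded by *EHMT2*) and its partner GLP (encoded by *EHMT1*). The remaining arrays held MM.1S cells given the solvent dimethyl sulfoxide (DMSO) or both inhibitors, and the same 4 conditions in a second myeloma line, RPMI-8226. Each line stands for the tumor of 1 patient. The study describes the arrays of a group as biological replications.

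EZH2 is the catalytic subunit of the polycomb repressive complex PRC2, which methylates histone H3 at lysine 27 over genes held silent in a given cell type, among them developmental regulators such as the HOX genes. G9a and GLP work as a pair that methylates histone H3 at lysine 9 in euchromatin, a mark also tied to gene silencing and to the silencing of repeats. Loss of either mark is known to release lineage-foreign genes. Inhibition of EZH2 and loss of H3K9 methylation have both been linked to interferon responses. The direct comparison asks which transcripts differ between cells in which one or the other enzyme was inhibited, whatever their distance from untreated cells.

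RNA levels were read on 1-color Agilent arrays with 62976 spots, 4259 of them controls, which held 50599 different probes. Each array was scaled to its own 75th percentile, and levels are given below as scaled levels, on which the 75th percentile of an array equals 100 and on which values of different probes are not comparable. The 4 arrays had a 75th percentile of 438 to 477 intensity units and 51.1% to 52.8% of their spots well above the local background, with no saturated spot, and the number of arrays limits the precision. Replicate arrays correlated at Pearson's r = 0.994 for GSK126 and 0.995 for UNC0638 over probes, and arrays of different agents at 0.979 to 0.982. All MM.1S arrays lay on 1 slide, on which each treatment had a column to itself, so that agent and slide column cannot be told apart, and each replicate number had a slide row to itself. In bulk RNA, fewer cells that express a gene and less RNA per cell cannot be told apart either.

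Probes entered the test when the scanner software had marked them as well above background in both replicates of GSK126 or in both of UNC0638, which left 24327 probes for 13801 gene symbols. The test was limma's moderated test over the 4 arrays with Benjamini-Hochberg adjustment over all of these probes, and a probe was called at an adjusted p below 0.05. With 2 arrays against 2, an exact permutation test of a single probe cannot go below a two-sided p of 0.333. Of the tested probes, 648 (2.66%) were called higher with GSK126 and 735 (3.02%) higher with UNC0638. With 1 probe per gene, the one with the highest mean, 436 genes (3.16%) were called higher with GSK126 and 410 (2.97%) higher with UNC0638. Differences were wider than replicate error, since the log2 difference between the agents had an SD of 0.52 over probes where the replicate arrays alone would have given 0.22. The median probe differed by 0.04 (log2).

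These calls rested on all 4 arrays. Without UNC0638 replicate 1, 146 probes were called, and without GSK126 replicate 1, GSK126 replicate 2 or UNC0638 replicate 2 limma called 0, while 5168, 5291 and 5072 probes had an unadjusted p under 0.05 in those 3 fits against 7385 with all arrays. Of the 76 called genes that the naming rule picked, 18 stayed called without UNC0638 replicate 1, with none called in the other 3 fits.

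**Figure D1:**
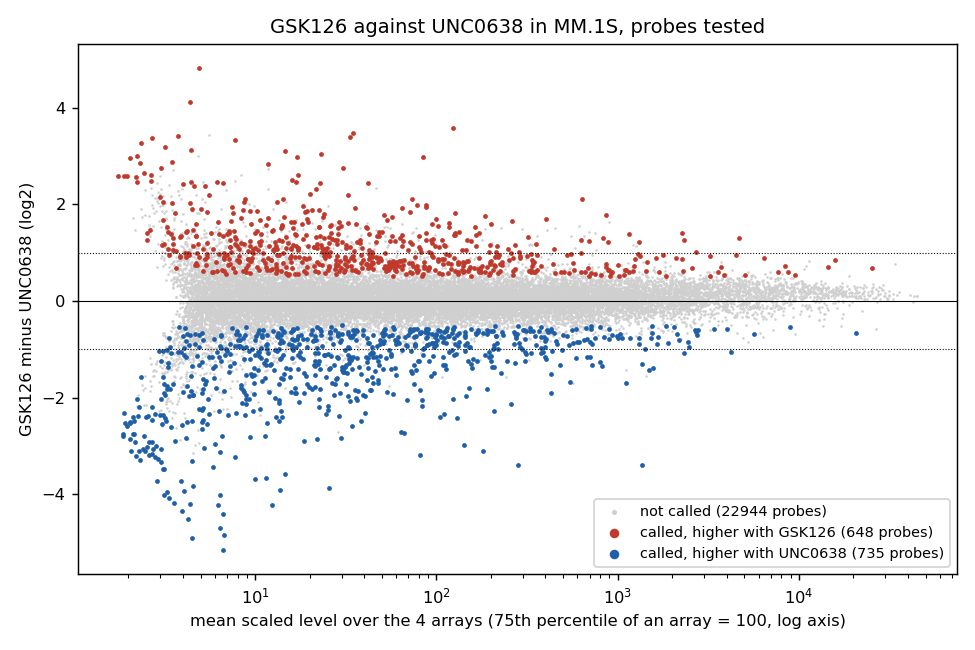
Log2 difference between GSK126 and UNC0638 in MM.1S (vertical axis) against the mean scaled level over the 4 arrays (horizontal, log axis) for each tested probe. Red points are the 648 probes called higher with GSK126, blue points the 735 called higher with UNC0638, grey points the rest, and the dotted lines mark 2-fold; the blue points reach farther from 0 at low levels.

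A more than 2-fold difference was reached by 624 probes higher with GSK126 and 724 higher with UNC0638. Of these, 300 (1.23% of probes tested) and 409 (1.68%) were also called, and they carried 246 and 245 gene symbols. Many lay close to the background in the lower group. Among the 624 and 724 probes, 170 and 286 had a lower group that did not clear background in either replicate, and the difference bound that can be stated, against the dimmest signal measured above background, still passed 2-fold for 54 and 134 of them. For such probes only a bound is given below ("at least").

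Against the DMSO arrays, which had no part in choosing the probes, the 2 sets lay differently. Among the 409 probes higher with UNC0638, the DMSO level was nearer to the GSK126 level for 365 and nearer to the UNC0638 level for 44. The median difference from DMSO was 1.74 (log2) with UNC0638 and -0.04 with GSK126. Among the 300 probes higher with GSK126, DMSO was nearer to GSK126 for 171 and nearer to UNC0638 for 129, and the medians were 0.62 with GSK126 and -0.79 with UNC0638. Over all 24327 probes, the DMSO level was nearer to GSK126 for 15646. The differences from DMSO share the DMSO arrays, and each also shares its treated arrays with the choice of probes, so that they are given as a description with no test.

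**Figure D2:**
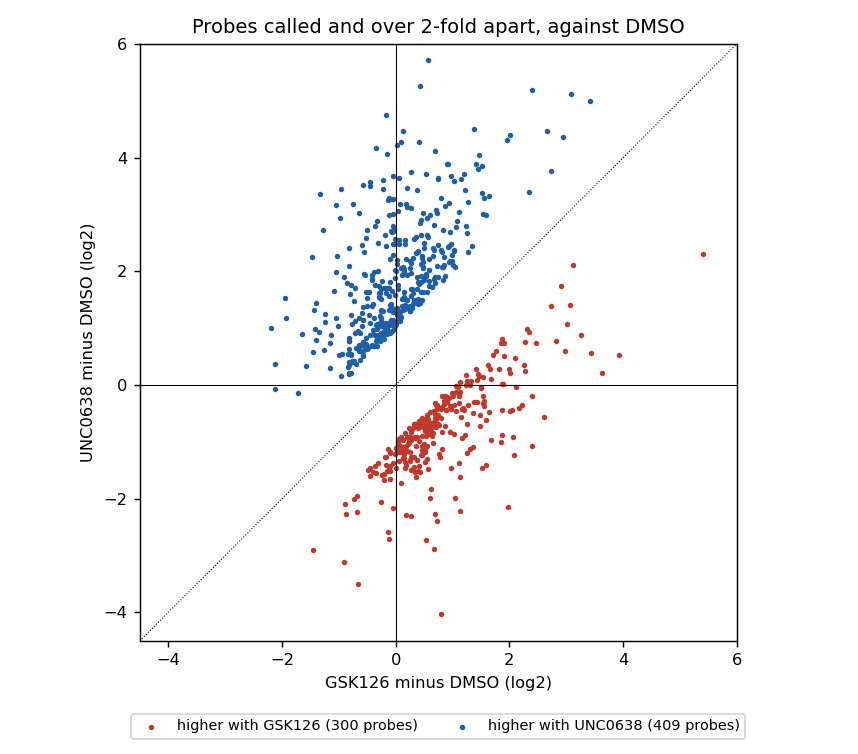
Mean difference from DMSO in MM.1S (log2) with GSK126 (horizontal axis) and with UNC0638 (vertical axis) for the 300 red and 409 blue probes that were called and more than 2-fold apart. The empty band along the diagonal is the 2-fold limit itself; blue points gather above the horizontal line near 0 on the GSK126 axis, and red points spread over the right and the lower part.

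Taking as specific to one agent a probe more than 2-fold from DMSO with that agent and less than 1.5-fold from DMSO with the other, 215 of the 409 probes (129 gene symbols) were raised with UNC0638 alone and 5 (*NLRP11*, *NLRP4* and *PECAM1*) were lowered with GSK126 alone. Of the 300 probes, 83 (64 gene symbols) were lowered with UNC0638 alone and 61 (59 gene symbols) raised with GSK126 alone. Over all probes tested, called or not, the same limits gave 493 (2.03%) raised and 266 (1.09%) lowered with UNC0638 alone and 228 (0.937%) raised and 46 (0.189%) lowered with GSK126 alone. A further 53 of the 300 and 55 of the 409 lay on opposite sides of DMSO, more than 1.5-fold from it with each agent, among them *EPCAM* and *CCND1* in the first set. In cells given both inhibitors the medians of the 3 larger classes lay on the same side of DMSO as with the agent that defined them. The classes were set against the same DMSO arrays, and the medians do not speak for every member. The median difference from DMSO in the combination was 1.92 for the probes raised with UNC0638 alone, 1.04 for those raised with GSK126 alone and -1.23 for those lowered with UNC0638 alone.

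The gene raised with GSK126 alone by the largest fold was *HOXB6*, a homeobox transcription factor of the HOXB cluster. Its probe (human build GRCh37, chromosome 17, 46673193 to 46673252) read scaled levels of 131 and 89.4 with GSK126, 9.70 and 10.9 with UNC0638, 7.76 and 6.47 with DMSO and 92.4 and 74.9 with both inhibitors. Both GSK126 arrays lay far above both UNC0638 arrays, which were near DMSO. The log2 difference between the agents was 3.40 ± 0.22 (SE; limma adjusted p = 0.0158). Its neighbor *HOXB5* read 13.4 and 11.3 with GSK126 and was not above background on any UNC0638 or DMSO array, a difference between the agents of at least 3.41-fold (limma adjusted p = 0.0194). *HOXB2*, also of this cluster, read 22.4 and 24.5 with GSK126 against 9.78 and 8.98 with UNC0638 (1.32 ± 0.10, limma adjusted p = 0.0185), with DMSO between the agents at 13.5 and 11.8. Other genes of this class were *DBN1*, which encodes the actin-binding protein drebrin, at 27.8 and 31.8 against 6.49 and 7.24, and *TLE1*, a transcriptional corepressor, at 61.3 and 78.1 against 19.6 and 16.9. *CDKN1C*, which encodes the CDK inhibitor p57, belonged to it as well, with 315 and 248 under GSK126, 106 and 87.4 under UNC0638 and 96.3 and 102 under DMSO. The difference of *CDKN1C* was 1.54 ± 0.18 (limma adjusted p = 0.0327), and the groups did not overlap.

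The genes farthest above the UNC0638 arrays with GSK126 lay in most cases below DMSO with UNC0638. *AHNAK*, which encodes a very large scaffold protein, had the largest fold. Its called probe (GRCh37, chromosome 11, 62283400 to 62283459) read 438 and 418 with GSK126, 44.0 and 29.5 with UNC0638 and 330 and 216 with DMSO. The difference was 3.57 ± 0.22 (limma adjusted p = 0.0153), though 1 of 3 tested probes of *AHNAK* was called and the lowest of the 3 differed by 0.42. *EPCAM*, which encodes an epithelial cell adhesion molecule (GRCh37, chromosome 2, 47613894 to 47613953), read 23.1 and 29.6 with GSK126, 12.8 and 17.9 with DMSO and 0.85 and 1.02, not above background, with UNC0638. It was at least 7.26-fold higher with GSK126 (limma adjusted p = 0.0104, the smallest in the comparison), and with both inhibitors it was again not above background. *CCND1*, which encodes cyclin D1 (GRCh37, chromosome 11, 69468233 to 69468292), read 37.9 and 38.1 with GSK126 against 7.04 and 6.47 with UNC0638 and 17.6 and 17.5 with DMSO (2.49 ± 0.09, limma adjusted p = 0.0104). DMSO lay between the agents for both genes. Each agent was more than 1.5-fold from DMSO, so that neither gene was specific to 1 agent by the limits above.

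Most of the other leading genes of this side kept that order. *NEURL*, a ubiquitin ligase gene, read 239 and 234 with GSK126, 32.1 and 28.4 with UNC0638 and 153 and 140 with DMSO (2.97 ± 0.10, limma adjusted p = 0.0104). *EMR2*, an adhesion receptor gene of myeloid cells, read 29.0 and 34.3 against 4.31 and 4.57, below DMSO (50.7 and 49.3) with both agents. *NTRK2*, which encodes the neurotrophin receptor TrkB, read 77.6 and 55.8 against 9.31 and 6.95, with DMSO at 35.7 and 28.2. *TMEM132E* and *NOG*, the latter the gene of the BMP antagonist noggin, lay nearer to DMSO under UNC0638. *TMEM132E* read 118 and 113 with GSK126, 11.3 and 9.52 with UNC0638 and 24.8 and 19.3 with DMSO, and *NOG* 60.0 and 38.5, 6.05 and 6.11, and 11.3 and 11.7. *MAMLD1* was at least 6.86-fold higher with GSK126 (limma adjusted p = 0.0387). *DOK7*, an adaptor of muscle synapses, read 76.9 and 81.5 against 10.99 and 12.8 at its called probe, but a second probe, not called, differed by -1.02. *CXCL13*, a B cell attracting chemokine, stood apart, since it was not above background with DMSO, 50.3 and 36.6 with GSK126, 6.18 and 4.09 with UNC0638 and 112 and 139 with both. The groups of the 2 agents did not overlap for any of these genes, as the rule that chose them required.

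Among the genes lowered with UNC0638 alone was *TERT*, which encodes the catalytic subunit of telomerase. It read 20.9 and 15.3 with UNC0638 against 98.4 and 96.4 with GSK126 and 115 and 98.7 with DMSO, and 10.4 and 10.6 with both inhibitors. The agents differed by 2.45 ± 0.18 (limma adjusted p = 0.0182), and both GSK126 arrays lay just below the DMSO arrays. *CFD*, which encodes complement factor D, read 42.8 and 35.95 with UNC0638 against 155 and 154 with GSK126. *F12*, which encodes coagulation factor XII, read 76.7 and 58.8 against 239 and 236, and *CITED4*, a transcriptional coactivator, 43.6 and 32.7 against 135 and 136. The germline gene *TEX19* read 14.5 and 11.4 with UNC0638, 45.3 and 44.3 with GSK126 and 50.8 and 56.9 with DMSO (1.80 ± 0.14, limma adjusted p = 0.0203). It was the only one of 10 tested germline and cancer-testis genes (of 43 listed) that was called, where 3.16% of all genes were called higher with GSK126. The median of the 10 was 0.26.

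On the UNC0638 side the leading genes were in most cases low with both DMSO and GSK126. *FCRLA*, a B cell gene whose product resembles Fc receptors, was already measurable without treatment. Its probe (GRCh37, chromosome 1, 161683792 to 161683851) read 416 and 428 with GSK126, 511 and 420 with DMSO, 4513 and 4373 with UNC0638 and 5604 and 5350 with both. GSK126 and DMSO overlapped, and UNC0638 lay far above both, with a log2 difference from GSK126 of -3.40 ± 0.08 (limma adjusted p = 0.0104) and the same call at a second probe. *CFTR*, the chloride channel gene mutated in cystic fibrosis (GRCh37, chromosome 7, 117308553 to 117308612), read 35.8 and 36.5 with UNC0638 and was not above background with GSK126 or DMSO, a difference of at least 10.4-fold (limma adjusted p = 0.0104). *FAM159A* read 46.7 and 61.7 with UNC0638, was not above background with GSK126 or DMSO, and gave the largest bound, at least 15.5-fold (limma adjusted p = 0.0109). *MAOA*, which encodes monoamine oxidase A, followed with at least 11.8-fold, and *GFRA2*, a receptor for neurturin, with at least 8.89-fold.

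Several of these genes belong to immune cells. *IL1RN*, which encodes the interleukin-1 receptor antagonist, read 90.0 and 106 with UNC0638, 5.47 and 8.13 with GSK126 and 4.79 and 5.27 with DMSO (-3.88 ± 0.23, limma adjusted p = 0.0149), although a second probe, not called, differed by 0.26. *MS4A4A* and *MS4A7*, membrane proteins of the family of CD20 that mark macrophages, read 472 and 596 against 50.1 and 76.1, and 46.8 and 55.3 against 6.95 and 6.76. Their probes lie on chromosome 11 (GRCh37, 60075655 to 60075714 and 60163279 to 60163338). *TLR7*, a sensor of single-stranded RNA in endosomes, read 22.7 and 31.8 with UNC0638 and was not above background with GSK126 or DMSO (at least 7.77-fold, limma adjusted p = 0.0185). *CCR3*, a chemokine receptor, read 79.8 and 79.6 against 12.3 and 10.2, and *GZMH*, a granzyme of cytotoxic lymphocytes, 55.6 and 62.1 against 9.35 and 7.07. Outside the immune genes were *HSD11B1*, which reactivates cortisone to cortisol (281 and 216 against 32.2 and 22.8), *LAMB3*, a laminin chain (423 and 377 against 65.3 and 39.7), and *ADAM29*, a testis gene whose 3 probes were all called (48.4 and 58.9 against 2.46 and 5.13 at the strongest). For each of these genes both UNC0638 arrays lay above both GSK126 arrays.

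**Figure D3:**
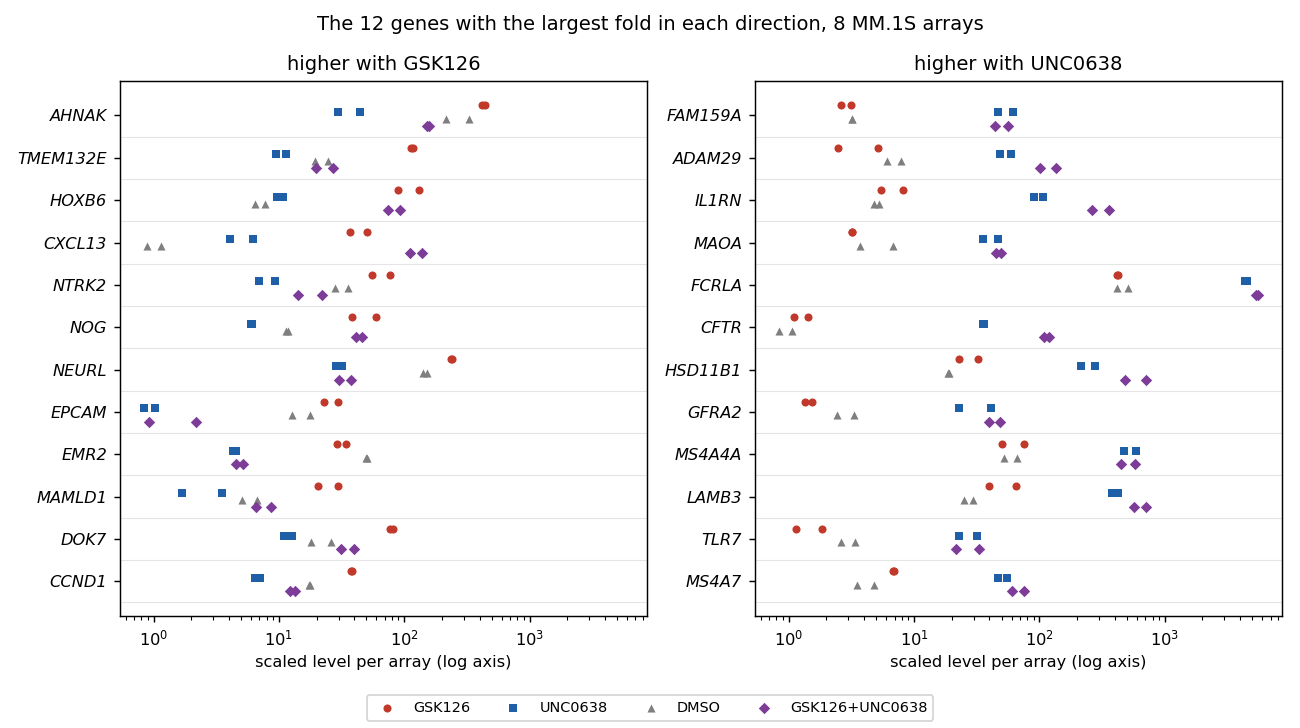
Scaled level on each of the 8 MM.1S arrays (horizontal, log axis) for the 12 genes with the largest fold in each direction, with 1 point per array. Circles are GSK126, squares UNC0638, triangles DMSO and diamonds both inhibitors. On the right, triangles sit near circles and diamonds near or right of squares for most genes, as for *FCRLA*, while on the left the position of the triangles varies.

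The promoters of *FCRLA* and *TMEM132E*, one leading gene of each side, are shown as one promoter with few and one with many CG dinucleotides, the sites of DNA methylation. Each run holds the 250 bases before the start of transcription, from RefSeq on build GRCh38.p14, both on the plus strand, with CG dinucleotides in capitals. The *FCRLA* stretch (chr1:161706979-161707228) holds 1 CG and the *TMEM132E* stretch (chr17:34579332-34579581) holds 32.
FCRLA: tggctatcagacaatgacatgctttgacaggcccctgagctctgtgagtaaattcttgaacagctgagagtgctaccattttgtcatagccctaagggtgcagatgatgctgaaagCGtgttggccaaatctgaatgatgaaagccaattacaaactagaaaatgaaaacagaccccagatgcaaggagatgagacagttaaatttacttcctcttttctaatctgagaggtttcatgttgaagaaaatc
TMEM132E: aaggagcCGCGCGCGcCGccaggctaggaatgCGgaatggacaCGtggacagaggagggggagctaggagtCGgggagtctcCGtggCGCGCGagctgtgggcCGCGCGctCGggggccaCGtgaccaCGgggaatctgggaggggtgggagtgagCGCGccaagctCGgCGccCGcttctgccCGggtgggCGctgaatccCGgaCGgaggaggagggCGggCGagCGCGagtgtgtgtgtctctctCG
The pair was chosen after the counts were seen and stands for no other gene, since under 80% of the genes of either side had a promoter in the table.

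Among the receptors for antibody and their relatives, the Fc receptors and the FCRL family, UNC0638 gave the higher level for nearly every member. Of 13 listed genes 12 were tested, and 7 were called higher with UNC0638 and none higher with GSK126. Among all genes, 2.97% were called higher with UNC0638 and 3.16% higher with GSK126. The median log2 difference of the list was -2.19 against 0.04 over all genes. At the probe with the highest mean of each gene, the called members were *FCRL1*, *FCRLA*, *FCRL3*, *FCGR2B*, *FCGR2C*, *FCRL2* and *FCER1G*. *FCRL1*, a B cell surface receptor, read 15.6 and 18.7 with UNC0638 and was not above background with GSK126 (at least 4.93-fold, limma adjusted p = 0.0149). *FCGR2B*, the inhibitory Fc receptor, read 75.3 and 92.8 against 13.8 and 14.1 (-2.58 ± 0.13, limma adjusted p = 0.0118), above DMSO (4.88 and 5.27) with both agents. *FCER1G*, the shared signaling chain, read 205 and 258 against 92.8 and 102. A second probe of *FCGR2A*, an activating Fc receptor, read 14.8 and 23.5 with UNC0638 and was called as well (at least 5.40-fold, limma adjusted p = 0.0169). *FCER1A*, a chain of the IgE receptor outside the list and added after its values were seen, read 28.9 and 32.1 against 7.72 and 8.88 and was called (-1.88 ± 0.12, limma adjusted p = 0.0156). The *FCGR2* genes are near-identical copies, so that a probe for one may also read another, and their levels are uncertain as to which copy they came from. Passing the background filter in the UNC0638 group alone let such genes enter the test, and these counts describe tested members only.

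MHC class II genes, whose products present peptides to helper T cells, were higher with UNC0638 as well. Of 12 listed genes 11 were tested, and 7 were called, all higher with UNC0638, where 2.97% of all genes were. The list median was -0.86 against 0.04 over all genes. *HLA-DOB*, a chaperone chain of B cells, read 834 and 827 with UNC0638, 182 and 270 with GSK126 and 202 and 200 with DMSO (-1.91 ± 0.22, limma adjusted p = 0.0326). *HLA-DRB1*, a chain of the main presenting molecule and one of a set of near-identical genes, read 1261 and 1210 against 551 and 484 (-1.26 ± 0.10, limma adjusted p = 0.021). *HLA-DPB1* read 884 and 894 against 380 and 407, and all 4 of its tested probes were called. *HLA-DQB1* read 108 and 100 against 51.8 and 49.8. The transactivator *CIITA*, which drives these genes, read 169 and 133 with GSK126 and 154 and 141 with UNC0638, so that the groups overlapped (adjusted p = 0.924 by limma). *CD74*, the invariant chain, read 377 and 367 against 556 and 503 and missed the call (limma adjusted p = 0.0619). None of 16 MHC class I genes was called, and their median was -0.06.

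Interferon-stimulated genes, the antiviral effectors that interferon induces, were called higher with UNC0638 in 10 of 54 tested (57 listed) and higher with GSK126 in none. Among all genes, 2.97% were called higher with UNC0638 and 3.16% higher with GSK126. The list median was -0.33 against 0.04 over all genes. Relative to DMSO, the list median was 0.48 with GSK126 and 0.80 with UNC0638, values that share the DMSO arrays. *IFI44L* read 14.6 and 24.1 with UNC0638 and was not above background with GSK126 or DMSO (at least 5.43-fold, limma adjusted p = 0.0499). This gene passed the background filter through the UNC0638 group alone. *UBD*, a ubiquitin-like modifier, read 30.1 and 34.9 with UNC0638 against 6.35 and 5.99 with GSK126 (-2.40 ± 0.11, limma adjusted p = 0.0118). *IFIT1*, which binds foreign RNA caps, read 45.5 and 56.3 with UNC0638, 20.9 and 15.9 with GSK126, 4.60 and 8.61 with DMSO and 127 and 172 with both (-1.47 ± 0.19, limma adjusted p = 0.0399). *IFIT1* was thus above DMSO with each agent, higher with UNC0638, and higher still with both. *XAF1*, a pro-apoptotic gene, read 70.7 and 81.9 against 28.6 and 22.6, with both of its probes called. *OAS3*, *OAS1*, *IFIT3*, *MX1*, *TRIM22* and *USP18* were the other called members, with differences of -1.39 for *OAS3*, an RNA-sensing synthetase, to -0.90 for *USP18*, a brake on interferon signaling. *ISG15*, by contrast, read 314 and 317 with GSK126 and 278 and 337 with UNC0638, 153 and 150 with DMSO, and did not differ detectably between the agents (0.04 ± 0.12, limma adjusted p = 0.841).

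The interferon-stimulated response element is the DNA element through which interferon acts on such promoters, with IRF9 among the proteins that bind it. Its core, searched as GAAA, any 2 bases and GAAA again on both strands over the 300 bases around each start (250 before and 50 after), was found in 31 of the 46 interferon-stimulated genes with a promoter in the RefSeq table (67.4%) and in 996 of all 27305 promoters there (3.65%). It was found in 5 of 8 called and 26 of 38 other members. The promoters of *IFIT1* (chr10:89392373-89392622) and *IFIT3* (chr10:89327747-89327996), neighbors on the plus strand, are shown with the matches in capitals, as the 2 called members of 1 family, again as the 250 bases before the start on GRCh38.p14.
IFIT1: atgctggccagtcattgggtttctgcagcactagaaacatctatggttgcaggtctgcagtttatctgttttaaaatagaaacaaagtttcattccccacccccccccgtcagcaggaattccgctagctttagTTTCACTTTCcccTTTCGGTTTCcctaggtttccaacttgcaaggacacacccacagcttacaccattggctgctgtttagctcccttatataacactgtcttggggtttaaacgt
IFIT3: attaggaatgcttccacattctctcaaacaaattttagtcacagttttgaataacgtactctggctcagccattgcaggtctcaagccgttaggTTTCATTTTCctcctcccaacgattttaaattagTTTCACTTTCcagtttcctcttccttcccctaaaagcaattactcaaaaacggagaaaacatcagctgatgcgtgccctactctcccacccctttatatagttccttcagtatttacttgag
Each run holds 2 matches, read here on the opposite strand. *IFIT3* read 53.4 and 47.4 with UNC0638 against 20.6 and 18.7 with GSK126 and 9.24 and 10.1 with DMSO (-1.36 ± 0.11, limma adjusted p = 0.0206).

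Of the genes listed for interferon signaling, RNA sensors among them, 27 of 32 were tested. Of these, 4 were called, all higher with UNC0638, where 2.97% of all genes were, and the list median was -0.25. Beside *TLR7* these were *DHX58*, *IRF9* and *IRF7*. *DHX58*, which encodes the RNA sensor LGP2, read 118 and 133 against 57.0 and 57.5. *IRF9*, the DNA-binding part of the interferon complex, read 115 and 130 with UNC0638, 62.5 and 67.7 with GSK126 and 57.0 and 55.0 with DMSO (-0.91 ± 0.11, limma adjusted p = 0.0338). *IRF7*, an inducer of interferon genes, read 1269 and 1358 against 797 and 840, with DMSO (998 and 1089) between. The interferon-stimulated gene *IFI6*, at 73.4 and 86.1 with UNC0638 against 52.1 and 59.9, missed the call (limma adjusted p = 0.102), though the arrays of the agents did not overlap.

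Among secreted signals the called genes went both ways. Of 20 tested chemokine and cytokine genes (36 listed), *CXCL13*, *CXCL16* and *CXCL10* were called higher with GSK126, where 3.16% of all genes were. *LTA* and *IL15* were called higher with UNC0638, where 2.97% of all genes were. *CXCL10*, an interferon-induced chemokine, read 441 and 413 with GSK126 against 277 and 290 with UNC0638 and 164 and 167 with DMSO (0.59 ± 0.09, limma adjusted p = 0.0464). *IL15*, a cytokine of T and NK cells, read 223 and 230 with UNC0638 against 151 and 135 (-0.66 ± 0.09, limma adjusted p = 0.0451).

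**Figure D4:**
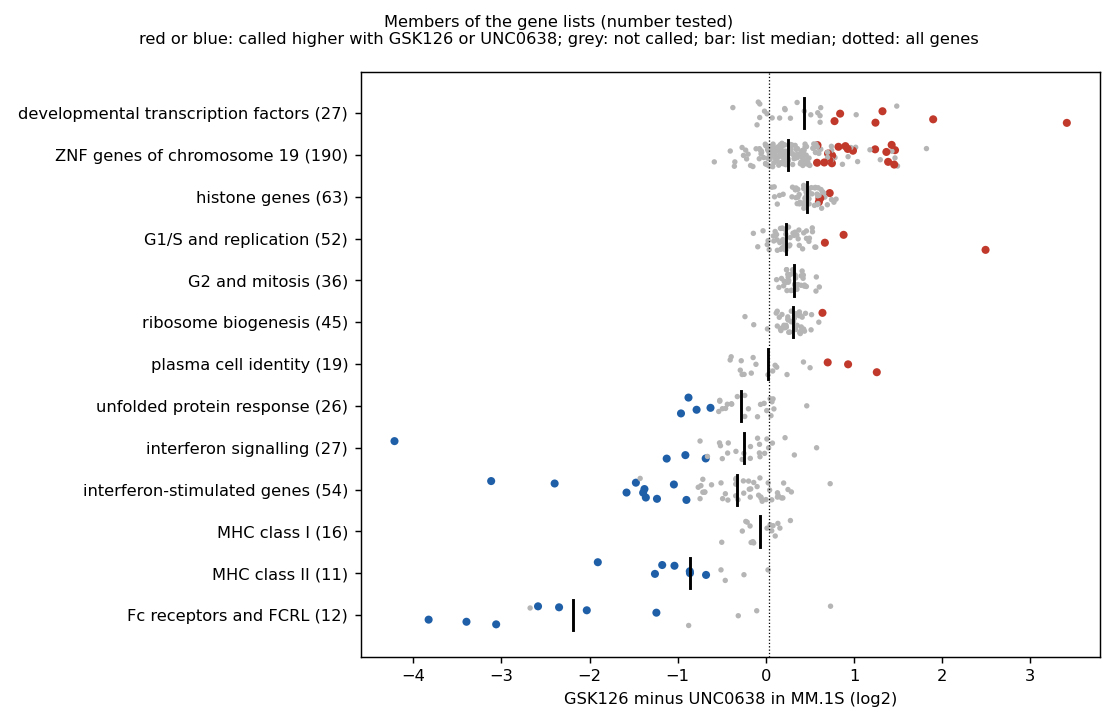
Log2 difference between GSK126 and UNC0638 in MM.1S (horizontal axis) for the tested members of 13 gene lists, 1 point per gene at its highest probe. Red points were called higher with GSK126, blue points higher with UNC0638, grey points were not called, black bars are list medians and the dotted line is the median of all genes. The Fc receptor, MHC class II and interferon lists reach to the left, and the histone and mitosis points all lie right of 0.

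Zinc finger genes on chromosome 19, the longest of the lists, held 17 genes called higher with GSK126. Many of them encode repressors with KRAB domains, and they lie in clusters. Of 190 tested (245 on the array), none was called higher with UNC0638, and 167 had the higher mean with GSK126, with a median of 0.25. Among all 13801 genes, 3.16% were called higher with GSK126 and 7678 had the higher mean with it, with a median of 0.04. *ZNF529* read 22.1 and 19.8 with GSK126, 7.24 and 7.93 with UNC0638 and 26.1 and 22.4 with DMSO (1.47 ± 0.11, limma adjusted p = 0.0179), and *ZNF264* 24.8 and 28.7, 10.3 and 10.1, and 24.8 and 26.7. GSK126 lay near DMSO for both, and UNC0638 below. *ZNF222* read 12.4 and 11.3 against 4.73 and 3.92, and *ZNF577* was at least 1.51-fold higher with GSK126. The median difference from DMSO over the 190 was -0.02 with GSK126 and -0.31 with UNC0638. With the percentile taken over detected probes 11 were called, and over all 8 MM.1S arrays in 1 fit 43.

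Developmental transcription factors are the class that PRC2 is best known to hold silent. Of 78 listed genes 27 were tested, and *HOXB5*, *DLX1*, *HOXB2*, *OLIG2*, *MEIS2* and *PAX2* were called, all higher with GSK126. Among all genes, 3.16% were called higher with GSK126. The list median was 0.44 against 0.04 over all genes. *HOXB5* and *DLX1* passed the background filter through the GSK126 group alone, and these counts describe tested members only. *DLX1*, a homeobox gene of forebrain neurons, read 8.95 and 8.32 with GSK126 and 6.70 and 6.48 with DMSO and was not above background with UNC0638 (at least 2.40-fold, limma adjusted p = 0.0359). *OLIG2*, of oligodendrocytes, read 15.1 and 13.7 with GSK126, 6.30 and 5.88 with UNC0638 and 11.98 and 12.4 with DMSO. *HOXB6* was not on this list. In *DLX1* and *OLIG2* the UNC0638 arrays were the ones far from DMSO, while in *HOXB5* the GSK126 arrays were.

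The cell cycle and growth lists leaned to GSK126 by small amounts. Their median differences from DMSO were near 0 or below it with GSK126 and lower with UNC0638. With GSK126 and UNC0638 in turn, they were 0.02 and -0.47 for histone genes and -0.03 and -0.36 for mitosis. For G1, S phase and replication they were -0.15 and -0.42, and for ribosome biogenesis -0.23 and -0.56. These values share the DMSO arrays. All 63 tested histone genes had the higher mean with GSK126, with a median of 0.47. Of these, 4 were called, *HIST1H2AC*, *HIST1H1D*, *HIST1H3D* and *HIST1H3F*, where 3.16% of all genes were called higher with GSK126. *HIST1H3D* read 10985 and 10447 with GSK126 against 7022 and 7033 with UNC0638 (0.61 ± 0.08, limma adjusted p = 0.0398), and another probe of *HIST1H2AC* differed by -0.39. Histone genes of a cluster are near-identical, so that the copies are uncertain. All 36 genes of G2 and mitosis also had the higher mean with GSK126, but none was called, with a median of 0.32. *MKI67*, a proliferation marker among them, read 507 and 443 against 322 and 317 (limma adjusted p = 0.0616). Of 52 genes of G1, S phase and replication, *CCND1*, *CDK6* and *E2F8* were called higher with GSK126, where 3.16% of all genes were. The list median was 0.23. *CDK6*, the kinase partner of D-type cyclins, read 3041 and 2654 against 1653 and 1437 (0.88 ± 0.12, limma adjusted p = 0.0443). Of 45 ribosome biogenesis genes 43 had the higher mean with GSK126, with a median of 0.31, and 1 was called, *MYBBP1A* at 411 and 418 against 270 and 261, a share below the 3.16% of all genes. The counts for these lists depended on the fit. With all 8 MM.1S arrays 25 histone genes, 10 mitosis genes and 14 ribosome biogenesis genes were called.

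Genes of the unfolded protein response, which serves the secretory load of plasma cells, leaned to UNC0638. Of 26 tested, *DNAJB9*, *EDEM1*, *ERN1* and *ERO1LB* were called higher with UNC0638, where 2.97% of all genes were, with a median of -0.28. Relative to DMSO the list medians were -0.33 with GSK126 and -0.03 with UNC0638, values that share the DMSO arrays. *DNAJB9*, a chaperone partner of the endoplasmic reticulum, read 3532 and 3353 with UNC0638, 1690 and 1846 with GSK126 and 2429 and 2345 with DMSO (-0.96 ± 0.09, limma adjusted p = 0.0253). DMSO lay between the agents. *ERN1*, which encodes the stress sensor IRE1, read 25.7 and 22.6 against 13.7 and 14.2. Of 25 tested cholesterol synthesis genes 21 had the higher mean with UNC0638, with a median of -0.33. Relative to DMSO their medians were -0.65 with GSK126 and -0.25 with UNC0638. The 1 gene called among them was *TM7SF2*, a sterol reductase, at 121 and 119 with UNC0638 against 60.2 and 62.6. Of all genes, 2.97% were called higher with UNC0638. The amino acid response genes had the opposite sign between the agents, since 38 of 47 tested had the higher mean with GSK126, with a median of 0.21. Relative to DMSO their medians were below 0 with both agents, at -0.76 with GSK126 and -1.01 with UNC0638. The 1 gene called among them, a share below the 2.97% of all genes called higher with UNC0638, was *DDIT3*, which encodes the stress factor CHOP and read 57.6 and 56.7 with UNC0638, 29.4 and 33.3 with GSK126 and 58.7 and 83.3 with DMSO.

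Of 19 tested plasma cell identity genes, *KLF2*, *MYC* and *CD38* were called higher with GSK126, where 3.16% of all genes were, and none higher with UNC0638, with a list median of 0.02. *MYC*, the growth-promoting transcription factor, read 4592 and 4343 with GSK126, 2531 and 2161 with UNC0638, 5554 and 4825 with DMSO and 1652 and 1518 with both (0.93 ± 0.11, limma adjusted p = 0.0359). *KLF2*, a Krueppel-like transcription factor of lymphocytes, read 915 and 1031 with GSK126, 430 and 383 with UNC0638 and 1683 and 1457 with DMSO (1.26 ± 0.11, limma adjusted p = 0.0235). GSK126 overlapped no UNC0638 array for either gene and lay nearer to DMSO. *IRF4*, on which myeloma cells depend, read 1215 and 1414 against 1206 and 1020 (0.24 ± 0.14, limma adjusted p = 0.313), and *PRDM1*, the master regulator of plasma cells, 2190 and 2174 against 2260 and 1891 (0.08 ± 0.12, limma adjusted p = 0.69). The ranges of the 2 agents overlapped for *PRDM1*. Of 14 tested mature B cell genes, *ID3* (594 and 432 against 196 and 206) and *SPIB* (124 and 108 against 71.9 and 72.7) were called higher with GSK126, where 3.16% of all genes were. None was called higher with UNC0638, but 8 of the 14 had the higher mean with it, with a list median of -0.10.

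The targets of the inhibitors differed little. *EZH2* read 1399 and 1230 with GSK126 against 950 and 956 with UNC0638 (0.46 ± 0.10, limma adjusted p = 0.0801), and *EHMT2* 136 and 128 against 116 and 122 (0.15 ± 0.09, limma adjusted p = 0.301). None of 11 PRC2 genes, 16 H3K9 methylation genes and 15 *BCL2* family genes was called, with medians of 0.05, 0.05 and -0.00. These are RNA levels, and enzyme activity was not measured. Among 6 tested globin genes, *HBD* (6000 and 6098 with UNC0638 against 2806 and 3052 with GSK126) and *HBB* were called higher with UNC0638, where 2.97% of all genes were. *HBD* and *HBB* are a pair of near-identical genes whose probes may read each other. A probe of the fetal globin gene *HBG1* read 6.57 and 7.97 with UNC0638, was not above background with GSK126 or DMSO and was called (at least 2.09-fold, limma adjusted p = 0.0133), while the brighter probe of *HBG1* differed by -0.12 and was not.

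Markers of other cell types were low or partial. All 9 plasma cell markers were above background on the 4 arrays, with a summed scaled level of 39471 and 44770 with GSK126 and 50296 and 46297 with UNC0638. The 5 T cell markers summed to 54.7 and 49.8 with GSK126 and 102 and 112 with UNC0638, mostly through *CD2*, which was called (46.0 and 63.1 with UNC0638 against 13.9 and 10.2), and *CD3E* (16.3 and 15.5 against 6.05 and 3.61, limma adjusted p = 0.0507), while *CD3D* read 7.41 and 7.21 against 8.78 and 8.75. The 4 myeloid markers on the array summed to 25.6 and 27.5 with GSK126 and 41.1 and 38.4 with UNC0638, through *ITGAM* (23.9 and 24.9 against 8.42 and 8.66), and *CSF1R* was not above background on any of the 4 arrays. The 5 epithelial markers summed to 200 and 186 with GSK126 and 152 and 130 with UNC0638, with *EPCAM* and *KRT18* called and *CDH1* not above background. Of the 5 fibroblast and 5 erythroid markers, 4 and 3 were not above background on any of the 4 arrays. The part of other cell types in the genes above was not tested.

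The calls among transcripts of long intergenic regions lay mainly on the UNC0638 side. Of 1892 tested probes for them, 860 had the higher mean with GSK126 and 1032 with UNC0638, with a median difference of -0.04, while 108 (5.71%) were called higher with UNC0638 and 19 (1.00%) higher with GSK126, where 517 (2.71%) and 569 (2.98%) of the 19099 probes with a gene symbol were. They were dim, with a median scaled level of 13.6 against 101 for probes with a symbol, and of the 76 called and more than 2-fold higher with UNC0638, 41 were not above background on either GSK126 array.

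The same comparison in RPMI-8226, made on arrays that had no part in the choice of the genes above, gave fewer calls. Of 22210 probes tested there, 108 were called higher with GSK126 and 90 higher with UNC0638 (0.891% in all), with 2900 at an unadjusted p under 0.05. Of the 300 probes higher with GSK126 in MM.1S, 221 were tested in RPMI-8226, and 168 of these (76.0%) had the same sign, where 50.4% of all probes with a higher mean with GSK126 did. Of the 409 probes higher with UNC0638, 198 were tested and 135 (68.2%) had the same sign, where 60.6% of all such probes did. *FCRLA* was among these, with a difference of -3.66 in RPMI-8226, not called there (limma adjusted p = 0.225), against -3.40 in MM.1S. Of the 9 Fc receptor and FCRL genes tested in RPMI-8226, 4 had the higher mean with GSK126 and 5 with UNC0638, none was called, and the median was -0.07. In the test of the difference between the lines, 551 of 25927 probes (2.13%) were called, a count that ran from 92 (without MM.1S GSK126 replicate 2) to 1033 (without RPMI-8226 GSK126 replicate 2) when 1 array was left out. The lines lay on separate slides, so that line and slide cannot be told apart. Each agent had the same column on both slides, so that signs shared by the lines do not separate agent from column either.

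The median of the interferon-stimulated genes had the opposite sign in RPMI-8226. Of 47 members tested in that line, 42 had the higher mean with GSK126, with a median of 0.66 against -0.04 over all genes there, and *GBP4* and *PARP9* were called. The difference between the lines was called for *UBD*, *XAF1*, *PARP9* and *TRIM22*, the last of which did not pass the background filter in RPMI-8226. *UBD* differed by 2.22 in RPMI-8226 against -2.40 in MM.1S, a difference between the lines of -4.61 ± 0.40 (limma adjusted p = 0.0101). *IRF9* differed by 0.67 in RPMI-8226 against -0.91 (limma adjusted p = 0.0238 for the difference). The zinc finger genes kept their direction, since 135 of 166 tested in RPMI-8226 had the higher mean with GSK126, with a median of 0.30. The histone genes did not, with 12 of 60 higher with GSK126 and a median of -0.17.

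**Figure D5:**
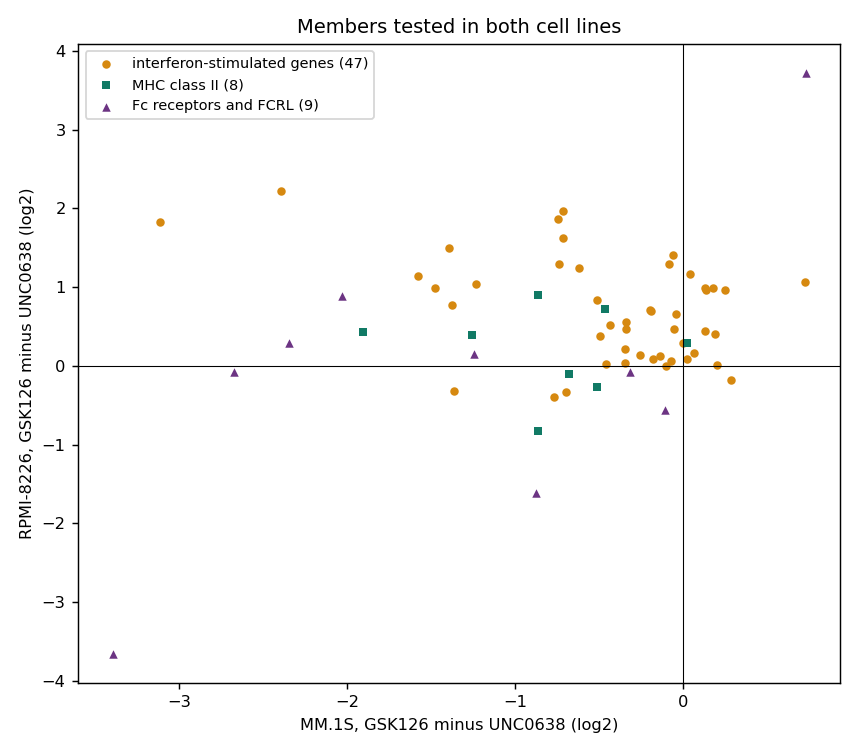
Log2 difference between GSK126 and UNC0638 in MM.1S (horizontal axis) and RPMI-8226 (vertical axis) for the 47 interferon-stimulated genes (circles), 8 MHC class II genes (squares) and 9 Fc receptor and FCRL genes (triangles) tested in both lines. Most circles lie above the horizontal line and left of the vertical one, higher with UNC0638 in MM.1S and with GSK126 in RPMI-8226; the triangle at the lower left is *FCRLA*.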

How the data were processed

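Total RNA of each sample was labeled with Cy3 and hybridized to 1-color Agilent SurePrint arrays. The authors extracted spot values with Agilent Feature Extraction 10.7 (submitters' processing notes), and the deposited intensity is its processed signal, already background-corrected and not normalized between arrays. Probe positions in the files are on human build GRCh37, and gene names are those of the array design. Control and outlier spots were left out, spots of 1 probe were averaged, and log2 intensity was set relative to the 75th percentile of the array. The authors also deposited a series table of normalized log2 values, which served as an alternative. Tests used limma 3.58.1 in R 4.3.3, after tests on simulated data. Replicate numbers were not taken as pairs, since the same-number deviations of the 2 agents correlated at 0.257 but each group held only 2 numbers, which also mark the slide row.

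The members and gene lists were chosen with earlier results of these data known. The genes named are the 12 with the largest fold in each direction among called probes with no overlap between the agents, 12 genes the study centered on (1 of them not reported here), and up to 4 called members of each list in each direction. Examples of genes specific to 1 agent and further list members were chosen after their values were seen. Alternatives changed the scaling, background correction, probe filter, block, arrays in the fit and prior variance, or left out 1 array. A comparison of CG content between the promoters of the 2 sides is void, because 149 of 215 and 171 of 228 genes had a promoter in the table, under the 80% set for such a check.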

Additional observations from a re-analysis of the deposited data

Results flagged for a closer look

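The difference between the agents was tested against the same difference in RPMI-8226, over 8 arrays with limma, and 30 of the genes that the naming rule picked passed (adjusted p below 0.05). Values are the log2 difference in MM.1S minus that in RPMI-8226. The line and the slide cannot be told apart, and none of these values was weighed further.

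A first set had opposite signs in the 2 lines, with a difference of over 0.2 in each. The lower value in MM.1S was found for *UBD* (-4.61), *XAF1* (-2.72), *HLA-DOB* (-2.34), *IL15* (-2.21), *IRF9* (-1.58), *IRF7* (-1.21) and *DDIT3* (-1.09), all with the higher mean with UNC0638 in MM.1S. The higher value in MM.1S was found for *CDKN1C* (2.30), *CXCL10* (1.69) and *MYC* (1.16).

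Genes higher with GSK126 in MM.1S and less so, or within 0.2 of 0, in RPMI-8226 were *EPCAM* (5.01), *AHNAK* (3.26), *NEURL* (2.81), *EMR2* (2.41), *HOXB6* (2.18), *DOK7* (2.10), *TEX19* (1.72) and *CCND1* (1.36). *FAM159A* (-4.03) and *LAMB3* (-3.03) were higher with UNC0638 in MM.1S and within 0.2 of 0 in RPMI-8226.

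For the other 10, neither agent was well above background on both arrays in RPMI-8226, so that the value compares MM.1S with a signal near background. These were *CFTR* (-4.96), *GFRA2* (-4.54), *FCGR2B* (-4.25), *FCRL3* (-4.05), *IL1RN* (-3.58), *MAOA* (-3.51), *HBB* (-2.61), *HLA-DQB1* (-2.54), *LTA* (-1.32) and *CXCL13* (2.84).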

How the results depend on the processing

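The 648 probes called higher with GSK126 and 735 called higher with UNC0638 became 1796 and 1671 with normexp background correction, 0 and 0 with no filter on dim probes (limma, with 6913 at an unadjusted p under 0.05), 1665 and 1559 in a fit over all 8 MM.1S arrays and 2758 and 2121 with an intensity-dependent prior variance, which raised the share higher with GSK126 from 46.85% to 56.5%. With the replicate block they were 296 and 404, or 2323 and 2040 with the block in the fit over all 8 arrays, and of all 1383 calls 546 and 1271 were kept. Without 1 array, 0 to 58 and 0 to 88 were called, and without UNC0638 replicate 1 the share higher with GSK126 was 39.7%. Quantile normalization, the percentile over detected probes, the filter on all 4 arrays and the series table left both counts within 1.5 times. The 624 and 724 probes past 2-fold became 149 and 171 with normexp, 1274 and 2727 with no filter, 370 and 340 with probes above background on all 4 arrays, 1720 and 1720 at a limit of 1.5-fold, and 185 and 302 at 3-fold. The 551 probes that differed between the lines became 866 with normexp, 249 with no filter, 236 with the replicate block and 92 to 1033 without 1 array.

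Of the 76 named genes that were called, 44 stayed called with the replicate block, 68 to 75 under the other scalings, corrections and fits, and 0 with no filter. Of those not called, *EZH2* passed with normexp (limma adjusted p = 0.0236) and the intensity-dependent prior variance (0.00985), *IFI6* with normexp (0.0356), the intensity-dependent prior variance (0.0324) and the block over all 8 arrays (0.0426), the difference of *PRDM1* ran from -0.051 (without UNC0638 replicate 2) to 0.21 and that of *ISG15* from -0.095 (without UNC0638 replicate 1) to 0.18 when 1 array was left out. The cause of these changes was not tested. A fit with the slide as a block was not run, because each line lay on 1 slide. Near background, where 170 and 286 of the probes past 2-fold had their lower group, the arrays give bounds only.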
